A study of Mus musculus with 6 samples.

Results

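Collagen and laminin genes are described here as a group of 55 genes out of the 28324 in the deposited table, taken by name: 44 whose symbol reads Col, a number, a and a number (for example Col1a1), and 11 laminin chain genes named Lama, Lamb or Lamc with a number. The cells came from the hippocampus of 6 mice of a transgenic amyloid strain, which carries APPswe, all 10 weeks old. Of these, 3 mice had been given an antisense oligonucleotide (ASO) and 3 had been given phosphate buffered saline (PBS), and the title of the series speaks of lowering IDOL, the ubiquitin ligase encoded by Mylip. All 6 mice are of this strain, so no group here lacks its transgenes, and the controls had saline in place of a control oligonucleotide. The mice are numbered 1 to 3 in each group in the order of the samples, and the numbers pair no mice in the labels.

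In Drop-Seq, droplets join each cell to a bead that carries a cell barcode, and RNA molecules are counted near the 3' end by a random tag, the unique molecular identifier (UMI). After removal of 207 called doublets, 12616 cells remained, with 2005768 to 3150332 UMIs per mouse. The 12823 cells before removal had 569 to 1999 UMIs each. The authors put each cell in 1 of 17 classes, which were used as deposited. Each marker list with a class of its own was highest in that class. The fibroblast list stood at 32409 CPM (counts scaled to 1000000 UMIs) in the Fibroblast-Like class, the endothelial list at 17029 CPM in Endothelial, and the pericyte and smooth muscle lists at 8589 and 23914 CPM in Mural. The vascular classes shared markers: the pericyte list stood at 3912 CPM in Endothelial and the endothelial list at 2572 CPM in Mural, and the part of shared RNA in the levels of these classes was not tested. Choroid plexus markers also reached 34018 CPM in the Cajal-Retzius class. The fibroblast list was next highest in Oligodendrocyte, at 4502 CPM on 15013 UMIs, against 4088 UMIs in Fibroblast-Like. The 6 mice were ranked by their mt-Rnr2 UMIs divided by mt-Cytb UMIs and cut into 3 sets of 2. Each set held 1 PBS and 1 ASO mouse of the same number, and the ASO mouse had the lower ratio. The ratios, ASO before PBS, were 4.49 and 7.16 (mice 2), 10.9 and 12.9 (mice 1), and 15.9 and 16.8 (mice 3). The cut was imposed on the ranking, and the labels name no such sets. Of 12606 distinct barcodes, 7 occurred in more than 1 mouse.

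Collagens are proteins whose chains wind round each other into a helix, and laminins are cross-shaped proteins of an alpha, a beta and a gamma chain. Type IV collagen forms a net that, with the laminin net, makes the basement membrane, the thin sheet under endothelial cells, around pericytes and smooth muscle, and under the astrocyte endfeet of brain vessels. Fibrillar collagens such as types I and III make the cables of connective tissue, which in brain lie mainly in the meninges and around larger vessels. The chain that a cell makes decides which trimer it can assemble, so levels of partner chains are described together.

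The 55 genes made up 11940 of 14326277 UMIs, or 0.0833%, with a median of 148 UMIs per gene. At least 1 of them was seen in 6678 cells (52.9%), and no cell held more than 9 UMIs of 1 gene. There were 35 genes with at least 100 UMIs and 20 with fewer, and each of the 55 had at least 1. Levels in a class are CPM of all UMIs of that class, which do not depend on gene length. They describe the classes and carry no test, because the authors' classes may rest on these same genes. RNA that leaks from broken cells gives UMIs in cells that do not express a gene, and low levels spread over all classes are given as values only.

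The 6 type IV chains lie in the genome as head-to-head pairs, and the sequence at or between the starts of each pair is shown because the pairs are compared by class next. Positions are those of GRCm38. Col4a1 (chr8:11198423-11312826, minus strand) and Col4a2 (chr8:11312805-11449287, plus strand) overlap by 22 bases at their 5' ends. Col4a4 (chr1:82448423-82586849, minus strand) and Col4a3 (chr1:82586921-82722059, plus strand) are 71 bases apart. Col4a6 (chrX:141165403-141474076, minus strand) and Col4a5 (chrX:141475385-141689234, plus strand) are 1308 bases apart. The shared bases of the first pair, all bases between the second pair, and 150 bases upstream of each start of the third pair were as follows, credited to GENCODE M21 and the GRCm38.p6 genome, with any match to the GC box letters GGGCGG or their reverse complement in capitals.
Col4a1 and Col4a2, shared, plus strand, chr8:11312805-11312826: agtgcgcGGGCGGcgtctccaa
Col4a4 and Col4a3, between, plus strand, chr1:82586850-82586920: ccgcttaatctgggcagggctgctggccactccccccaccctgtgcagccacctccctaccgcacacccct
Col4a5, upstream, plus strand, chrX:141475235-141475384: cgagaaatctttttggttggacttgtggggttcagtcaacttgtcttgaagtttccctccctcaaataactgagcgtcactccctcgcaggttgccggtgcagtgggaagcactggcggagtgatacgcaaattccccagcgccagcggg
Col4a6, upstream, minus strand, chrX:141474077-141474226: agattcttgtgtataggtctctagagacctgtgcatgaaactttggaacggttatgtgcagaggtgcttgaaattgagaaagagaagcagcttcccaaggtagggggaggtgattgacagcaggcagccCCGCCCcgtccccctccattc

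Of the 55 genes, 40 matched a RefSeq promoter window of 300 bases (250 before to 50 after the start, build GRCm38.p6), and both strands were searched. GGGCGG was in 24 of the 40 (60%) against 35.7% of all 32851 windows, CCAAT in 13 (32.5%) against 37.4%, and TATAAA in 5 (12.5%) against 13.6%. Matches were counted for each motif alone, although CCAAT read on the other strand (ATTGG) can overlap the start of GGGCGG, and a match describes only the letters. The windows of Col4a1, Col4a2 and Col4a5 held both CCAAT and GGGCGG, that of Col4a6 held GGGCGG, that of Col4a4 held neither, and TATAAA was in none of these 5. The GGGCGG match of the Col4a5 window is not within the bases printed.

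The pair Col4a1 and Col4a2, whose chains form the common type IV net, was highest in mural cells of the vessel wall in the summed counts. Col4a1 stood at 248 ± 101 CPM in mural cells and 194 ± 31.1 CPM in endothelial cells (SD over 6 mice), and Col4a2 at 166 ± 65.7 and 166 ± 22.3 CPM. Endothelial cells, the larger class, held 397 of 683 Col4a1 UMIs (58.1%) and 335 of 610 Col4a2 UMIs (54.9%). Mural cells were above endothelial cells for Col4a1 in the summed counts, at 246 against 198 CPM, while the ranges over mice overlapped. Col4a1 in Fibroblast-Like cells was at 241 ± 257 CPM and ranged from 44.0 to 742 CPM on 25 UMIs in all. Taking PBS mice only, Fibroblast-Like cells led for Col4a1, so their place beside mural and endothelial cells is within the spread.

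The other type IV chains were lower and had other leading classes, although mural cells were the next class by CPM for Col4a3 and Col4a6. Col4a3, whose chain joins those of Col4a4 and Col4a5 in the kidney filter, had 62 of 182 UMIs (34.1%) in astrocytes, at 28.3 ± 10.5 CPM. Its highest class by CPM was Choroid_Plexus with 3 UMIs, followed by mural cells at 32.8 ± 26.1 CPM on 16 UMIs. Its partner Col4a4 had 104 UMIs in all and was highest in Ependyma, at 27.4 ± 29.6 CPM on 7 UMIs. Col4a5 was highest in Fibroblast-Like cells at 128 ± 99.6 CPM on 17 UMIs, in 2 of 6 mice, and Choroid_Plexus led without ASO mouse 2. Mural cells were at 68.6 ± 11 CPM, and astrocytes, at 32.4 ± 5.68 CPM, held 33.6% of its UMIs. Col4a6 was highest in Fibroblast-Like cells at 73.3 ± 64.0 CPM on 11 UMIs from 4 mice. Mural cells came next for Col4a6, at 25.0 ± 23.6 CPM on 14 UMIs. Thus the head-to-head partners Col4a1 and Col4a2 shared the mural and endothelial classes, while the leading classes of the other 4 chains rest on 3 to 17 UMIs and give no firm order.

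**Figure D1:**
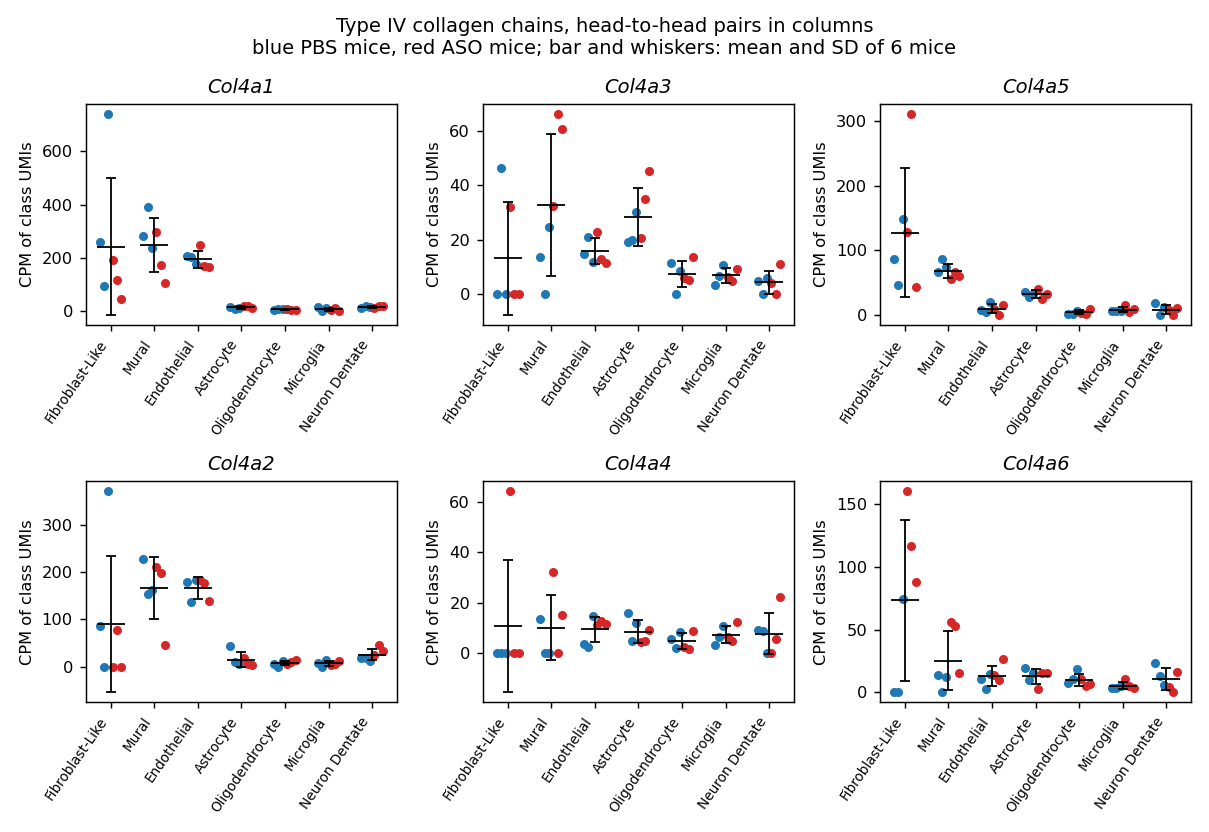
Level of the 6 type IV collagen chains (vertical axis, CPM of the class, each panel on its own scale) in 7 cell classes (horizontal axis). Points are mice, blue PBS and red ASO, with the mean and SD of 6 mice in black. Col4a1 and Col4a2 are high in mural and endothelial cells of the 6 mice, and the highest value of the 4 other chains there is 87.2 CPM, for Col4a5 in mural cells.

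Laminin alpha chains, which carry most of the receptor-binding part of the protein differed in the classes where they were highest, with overlap. Lama2, the gene of the alpha chain that is lost in a congenital muscular dystrophy, had the most UMIs of all 55 genes, 1299, and astrocytes held 535 of them (41.2%) at 240 ± 33.0 CPM. Fibroblast-Like cells had a higher level of Lama2, at 330 ± 164 CPM, and the ranges of the 2 classes overlapped. Mural cells stood at 143 ± 37.0 CPM on 70 UMIs, oligodendrocytes at 93.9 ± 23.9 CPM and endothelial cells at 55.5 ± 10.0 CPM. Lama4 and Lama5, the alpha chains known from the endothelial basement membrane, were highest in the vessel wall. Lama4 was at 121 ± 53.7 CPM in mural and 113 ± 20.8 CPM in endothelial cells, and Lama5 at 178 ± 70.7 and 122 ± 31.1 CPM. Endothelial cells held 56.0% of Lama4 and 58.1% of Lama5 UMIs. No Lama5 UMI was seen in the 108 Fibroblast-Like cells, which allows a level of up to 23.8 CPM (3 UMIs, counting error only), and astrocytes were at 13.9 ± 6.89 CPM.
Lama1 was highest in Fibroblast-Like cells, with 298 ± 164 CPM there and 5.20 ± 8.07 CPM in mural and 6.59 ± 2.57 CPM in endothelial cells. Those 108 Fibroblast-Like cells held 34 of its 111 UMIs and were its top class in 5 of 6 mice. Its next class, Choroid_Plexus, was at 68.4 ± 126 CPM on 2 UMIs, and the ranges overlapped. Lama3 had 194 UMIs spread over the classes, with the highest level in Ependyma on 10 UMIs.

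Among beta chains, Lamb2 was highest in the vessel wall and Lamb1 in Fibroblast-Like cells. Lamb2 was at 252 ± 96.3 CPM in mural, 187 ± 34.1 CPM in endothelial and 162 ± 74.3 CPM in Fibroblast-Like cells, and endothelial cells held 377 of its 671 UMIs (56.2%). In oligodendrocytes Lamb2 was at 1.45 ± 1.36 CPM. Lamb1 was at 185 ± 115 CPM in Fibroblast-Like cells and at 19.6 ± 23.3 CPM in mural cells, and the class with the most of its UMIs was dentate neurons, with 51 of 221 (23.1%). Of the gamma chains, Lamc1, part of most laminins, was at 197 ± 86.6 CPM in mural, 202 ± 168 CPM in Fibroblast-Like, 79.2 ± 9.52 CPM in endothelial and 52.5 ± 7.38 CPM in oligodendrocyte precursor cells (the class named Polydendrocyte). Lamc3 was at 115 ± 60 CPM in Fibroblast-Like, 53.2 ± 40.3 CPM in mural and 34.7 ± 8.21 CPM in endothelial cells, which held 44.5% of its UMIs. Lamb3, a chain of skin laminin, had 19 UMIs.

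**Figure D2:**
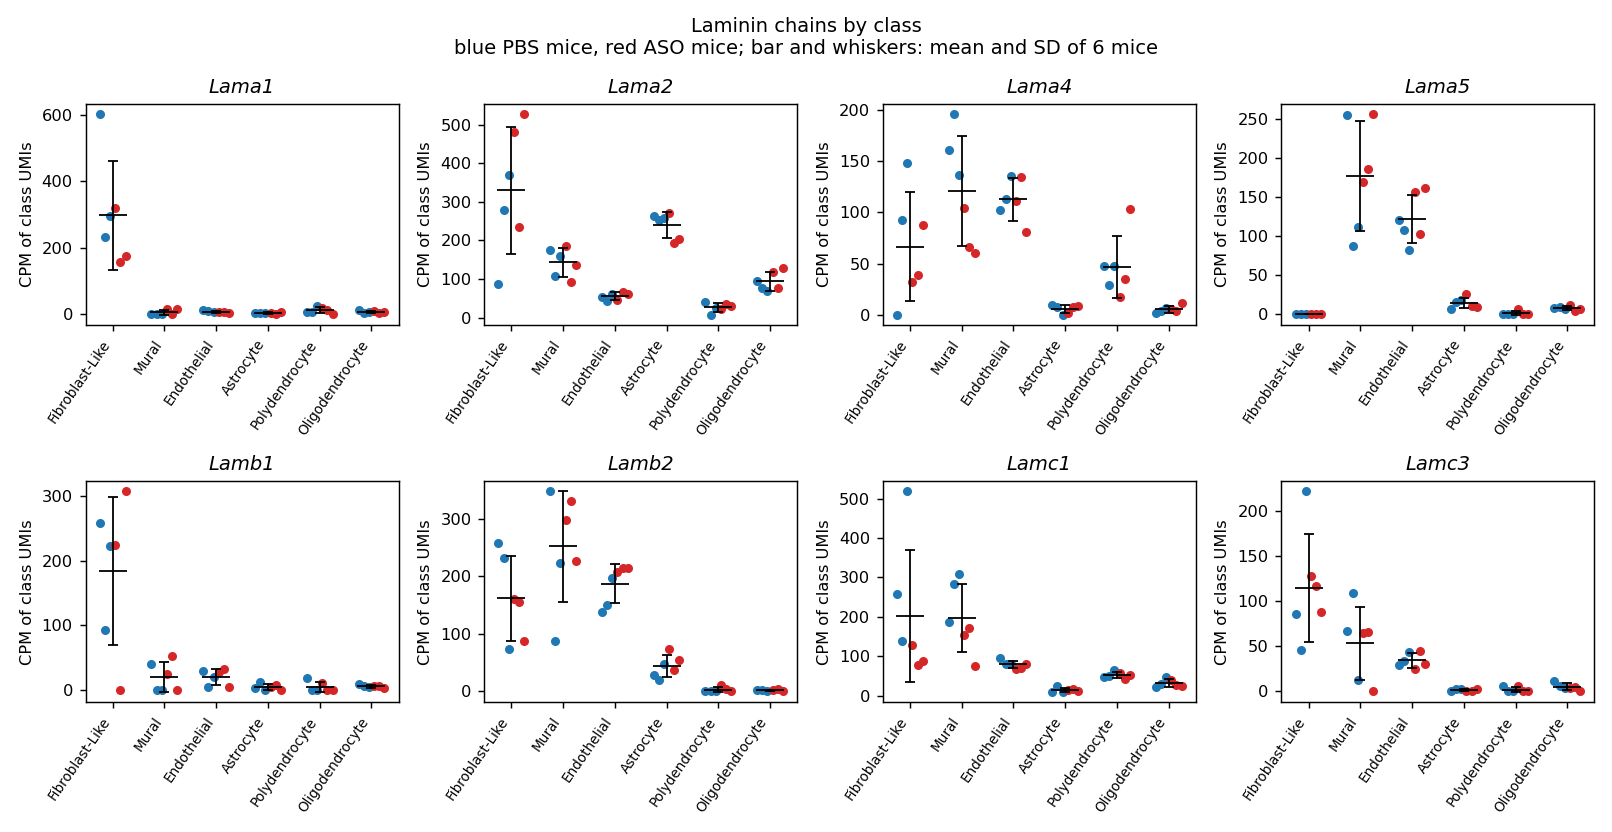
Level of 8 laminin chains (vertical axis, CPM of the class, each panel on its own scale) in 6 cell classes. Points are mice, blue PBS and red ASO, with the mean and SD of 6 mice in black. Lama1 is high in Fibroblast-Like cells alone of the 6 classes, Lama2 is highest in Fibroblast-Like cells and astrocytes, followed by mural cells, and Lama4, Lama5 and Lamb2 are highest in mural and endothelial cells, with Lamb2 also at 162 CPM in Fibroblast-Like cells.

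Fibrillar collagens were led by Fibroblast-Like cells for types I and III. Col1a2, a chain of type I collagen, was at 950, 1904 and 1483 CPM in Fibroblast-Like cells of the PBS mice and at 1155, 935 and 616 CPM in those of the ASO mice. These cells held 146 of its 331 UMIs (44.1%), and in every mouse they lay above mural cells, whose level was 143 ± 66.2 CPM. The level in endothelial cells was 27.8 ± 11.7 CPM and in microglia and macrophages 3.28 ± 2.71 CPM. The partner chain gene Col1a1 had only 60 UMIs, 26 of them in Fibroblast-Like cells at 221 ± 168 CPM, with 0 in PBS mouse 3. Col3a1 was at 204 ± 201 CPM there and at 30.8 ± 17.9 CPM in mural cells, and the ranges of the 2 classes did not overlap.

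Other fibrillar chains lay in glia, ependyma and neurons. Col27a1, a fibrillar collagen known from cartilage, was highest in microglia and macrophages, where 244 of its 426 UMIs (57.3%) fell. Its CPM there were 179, 82.3 and 113 with PBS and 117, 58.2 and 172 with ASO, above the other classes in each of the 6 mice. The next class, oligodendrocyte precursor cells, was at 56.0 ± 27.5 CPM on 61 UMIs, and the ranges over mice overlapped. Col11a1 and Col11a2, chains that limit the width of cartilage fibrils, were both highest in oligodendrocyte precursor cells in the summed counts, at 68.0 ± 15.5 and 74.0 ± 28.7 CPM. That class was the top one in 2 of 6 mice for Col11a1 and in 4 of 6 for Col11a2. In PBS mice only, Neuron_CajalRetzius led for Col11a1, as it did without PBS mouse 2, ASO mouse 2 or ASO mouse 3, and Astrocyte led for Col11a2. The next class of Col11a1 was Neuron_CajalRetzius (62.0 ± 30.0 CPM) and that of Col11a2 was Astrocyte (61.3 ± 10.1 CPM), which held 54.0% of Col11a2 UMIs. Col5a3 was highest in Ependyma in 6 of 6 mice, at 152 ± 37.0 CPM against 26.7 ± 15.2 CPM in oligodendrocyte precursor cells. Col5a1 was highest in Neuron_Subiculum_Entorhinal on 14 UMIs, Col5a2 in Neuron_CA2CA3 on 7 and Col24a1 in Neuron_CajalRetzius on 9, so these orders rest on few counts.

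Multiplexins, basement membrane collagens whose ends can be cut off as signalling fragments, were both highest in Fibroblast-Like cells. Col18a1, the source of endostatin, was at 200 ± 48.7 CPM there in ranges apart from mural cells at 78.0 ± 53.2 CPM. Col15a1 was at 113 ± 66.5 CPM there, and microglia and macrophages, at 47.3 ± 7.97 CPM, held 91 of its 219 UMIs (41.6%). The network chain Col8a1, known from the cornea and vessel walls, was at 271 ± 176 CPM in choroid plexus, 96.8 ± 69.9 CPM in mural and 91.3 ± 103 CPM in Fibroblast-Like cells. Its relative Col8a2 had 39 of 89 UMIs (43.8%) in Ependyma, at 185 ± 93.5 CPM, and 10 in choroid plexus, at 140 ± 129 CPM. In the summed counts these 2 classes stood at 166 and 170 CPM. Col6a1, a chain of beaded filaments, was highest in the 47 cells of Neuron_CA2CA3, at 496, 212 and 398 CPM in PBS and 285, 199 and 297 CPM in ASO mice, in each mouse above Fibroblast-Like cells (118 ± 53.3 CPM). It rested there on 17 UMIs. Its partner chains Col6a2 and Col6a3 had 2 and 0 UMIs in the same cells.

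Fibril-associated and transmembrane collagens were spread over choroid plexus, glia, neurons and Fibroblast-Like cells. Col9a3, known from cartilage, was at 651 ± 437 CPM in choroid plexus on 46 UMIs from 39 cells, and at 88.2 ± 23.5 CPM in oligodendrocyte precursor cells and 50.7 ± 17.4 CPM in astrocytes, which held 114 of 426 UMIs (26.8%). Col19a1 was at 198 ± 154 CPM in interneurons, although oligodendrocytes held more of its UMIs (62 against 28). Col16a1 was at 96.6 ± 65.4 CPM in Fibroblast-Like and 58.0 ± 22.6 CPM in oligodendrocyte precursor cells. Col14a1 and Col22a1 had leading classes on 5 and 1 UMIs and are given no order.
Col25a1 encodes a membrane collagen of neurons whose shed fragment is known from amyloid plaques. It was at 122 ± 27.6 CPM in dentate neurons, with 165 of 505 UMIs (32.7%), and at 342 ± 273 CPM in interneurons, where the mice ranged from 45.1 to 688 CPM on 46 UMIs. Col23a1, another membrane collagen, was at 287 ± 122 CPM in Fibroblast-Like cells, and astrocytes held 82 of its 368 UMIs (22.3%). Col26a1 was highest in Fibroblast-Like cells on 14 UMIs, 10 of them in ASO mouse 3.

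Taking the 35 genes with at least 100 UMIs, the highest class by CPM was Fibroblast-Like for 12, Mural for 6, and Choroid_Plexus, Ependyma, Interneuron and Neuron_CA2CA3 for 3 each. Oligodendrocyte precursor cells led for 2, and Microglia_Macrophage, Neuron_CajalRetzius and Neuron_Subiculum_Entorhinal for 1 each. The minimum of 100 UMIs is over all cells, so this tally includes leads on few counts. Among them are Col22a1 in Neuron_CA2CA3 on 1 UMI, Col4a3 in Choroid_Plexus on 3 and Col14a1 in Interneuron on 5. Mural leads over Endothelial were narrow for Lama4 (116 against 114 CPM, top in 2 of 6 mice) and Col4a2 (173 against 167, top in 3). By the number of UMIs held, Astrocyte and Endothelial led for 10 genes each, and only 5 of the 35 genes had the same leading class by both measures. All 55 genes together stood at 5200 ± 950 CPM in Fibroblast-Like cells, 2155 ± 411 CPM in mural and 1318 ± 85.1 CPM in endothelial cells. Oligodendrocytes, the class with the most cells, were at 473 ± 89.3 CPM. The small classes set the level and the large ones the number of molecules: Fibroblast-Like cells held 5.28% of all UMIs of these genes and endothelial cells 22.2%.

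**Figure D3:**
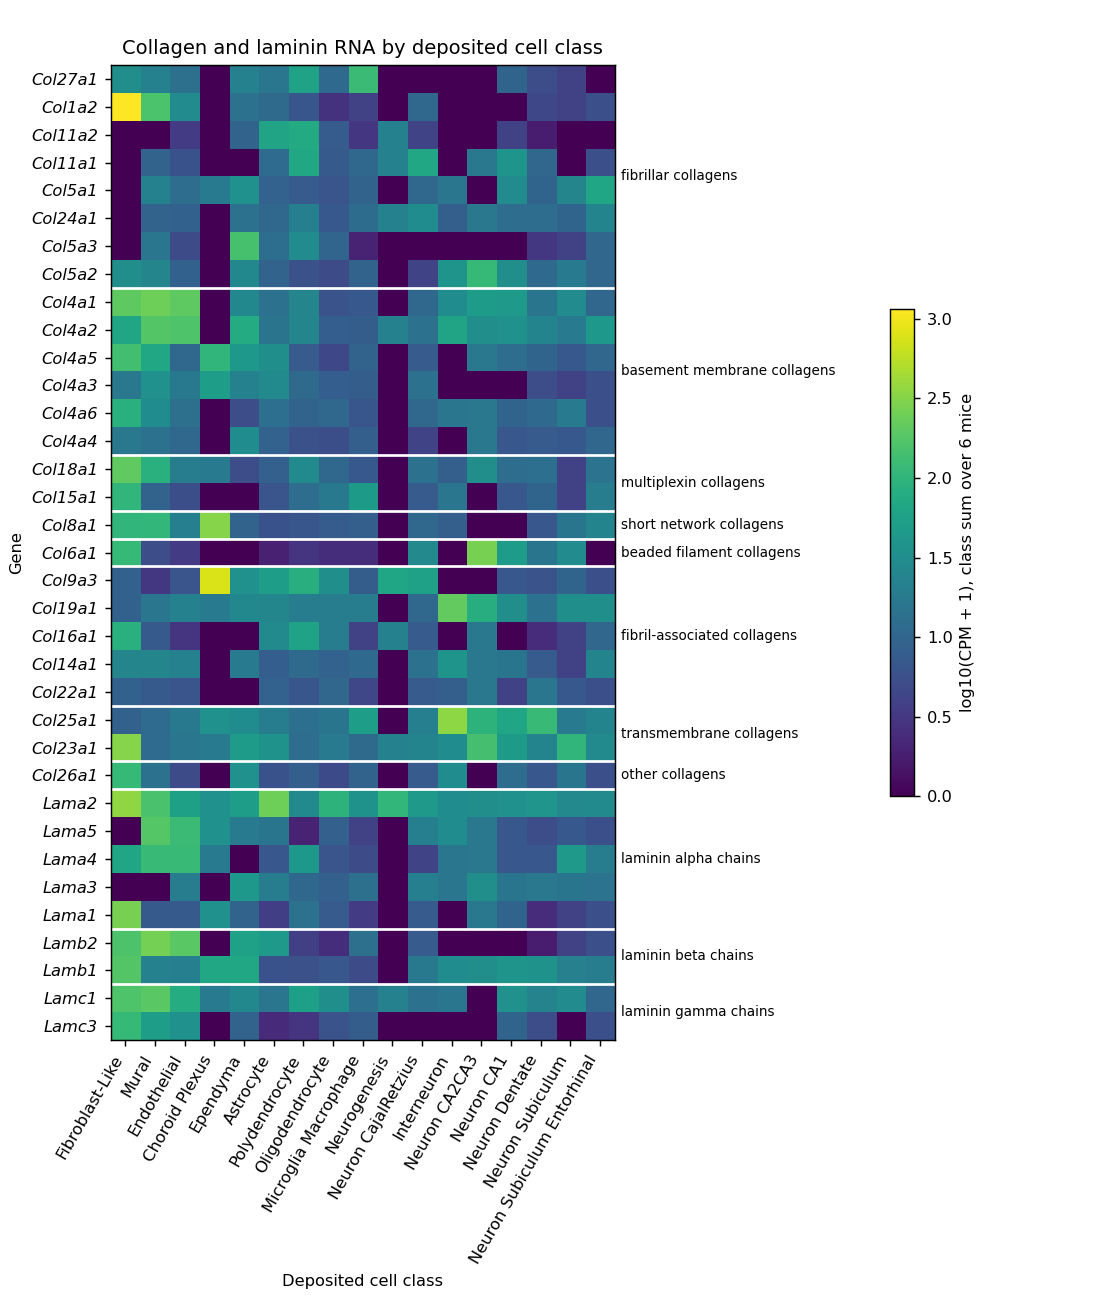
Level of the 35 genes with at least 100 UMIs (rows, grouped by kind of chain) in the 17 deposited classes (columns), as log10(CPM + 1), from counts summed over 6 mice. Fibroblast-Like cells are brightest for Col1a2, mural and endothelial cells are both bright for Col4a1, Col4a2, Lama4, Lama5 and Lamb2, and microglia and macrophages lead for Col27a1. Columns with few cells, such as Neurogenesis with 40, hold many values of 0.

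ASO and PBS mice were compared next, per mouse, first over all cells. Of the 55 genes, 45 passed the filter on low counts, 19 with a higher and 26 with a lower estimate in ASO mice, and 0 were past an edgeR adjusted p of 0.05. Over all 14002 genes tested, 1 was called (0.00714%). Among the 45, 5 had an unadjusted p under 0.05, and DESeq2 and limma voom called 0, with 3 and 5 at that level. The median log2 fold change (ASO minus PBS) was -0.10 for the 45 genes and 0.00 for all genes. Levels here are normalised CPM, counts scaled to 1000000 UMIs of the tested genes after TMM scaling. In a whole library, fewer cells of a type and less RNA per cell cannot be told apart.

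Laminin chains went in different directions by estimate. Lamb2 was at 39.4, 36.4 and 44.1 normalised CPM in PBS mice and at 56.9, 51.4 and 51.7 in ASO mice. Every ASO mouse lay above every PBS mouse (log2 fold change 0.42, SE 0.150, edgeR adjusted p = 0.999). Lama5 was at 30.9, 26.8 and 19.4 in PBS and 38.7, 25.3 and 35.5 in ASO mice (0.38, SE 0.209). Lama4, at 29.1, 31.8 and 34.2 against 24.0, 28.3 and 26.9, was lower in every ASO mouse than in any PBS mouse (-0.27, SE 0.172). Lamc1 was at 38.4, 41.8 and 48.2 against 41.0, 32.6 and 31.9 (-0.27, SE 0.166), with overlap. Lama2, the most counted gene, was at 94.7, 85.9 and 88.2 against 101, 76.7 and 101 (0.05, SE 0.141), and its 95% interval ran from -0.24 to 0.35. None of the laminin estimates passed after adjustment.

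The type IV pair did not differ beyond its spread. Col4a1 was at 48.7, 52.7 and 47.8 normalised CPM in PBS and at 59.8, 39.0 and 35.0 in ASO mice (log2 fold change -0.13), and the 95% interval ran from -0.52 to 0.26. Col4a2 was at 48.7, 35.5 and 46.2 against 47.0, 45.8 and 31.4 (-0.05), with an interval from -0.43 to 0.33. Both genes overlap on opposite strands only by 22 bases at their 5' ends, while UMIs are counted near the 3' end. Of the 55 genes, 6 overlap a coding gene on the other strand, these 2 and also Col9a3 (Tcfl5) and Col18a1 (Slc19a1) among them. Whether strand was used in counting is not given in the sources used here, which limits the counts of Col9a3 and Col18a1.

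Collagens with the lowest unadjusted p lay on both sides. Col20a1, a collagen that sits on fibrils, had 72 UMIs in all and was at 5.62, 7.73 and 7.42 normalised CPM in PBS and at 3.52, 3.43 and 3.04 in ASO mice. The groups did not overlap (log2 fold change -1.04, SE 0.366, edgeR adjusted p = 0.999). Col12a1, of the same kind, was at 7.5, 5.46 and 9.07 against 3.84, 3.43 and 4.06 (-0.96, SE 0.363), also without overlap. Col9a3 was at 28.1, 26.8 and 16.1 in PBS and at 42.6, 27.8 and 35.5 in ASO mice (0.60, SE 0.220, edgeR adjusted p = 0.999). The groups overlap through ASO mouse 2. Col23a1 was at 24.4, 19.1 and 23.1 against 25.6, 33.0 and 30.9 (0.42, SE 0.189), and Col22a1 at 9.84, 9.09 and 8.66 against 8, 5.57 and 3.04 (-0.65, SE 0.340). Neither of these 2 overlapped between groups. In all, 6 of the 45 genes were apart between groups, 2 above and 4 below, as were 9.02% of all genes tested.

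Col9a3 is high in the choroid plexus, and choroid plexus RNA varied between mice. The choroid marker list, 6 genes with none at 0, stood at 3061, 4509 and 932 CPM in astrocytes of PBS mice and at 2989, 2022 and 6263 CPM in those of ASO mice. Astrocytes alone had Col9a3 at 40.9, 46.6 and 40.4 in PBS and at 77.2, 46.7 and 83.0 normalised CPM in ASO mice. Its part in the result was not tested. Of the other most counted genes, Col25a1 was at 32.3, 31.8 and 38.3 against 37.8, 33.4 and 39.0 in the whole library (0.10, SE 0.162). Col27a1 was at 39.4, 21.4 and 33.4 against 34.2, 15.4 and 36.0 (-0.13, SE 0.265), with the mice of number 2 lowest in both groups. Col1a2 was at 17.8, 31.8 and 23.1 against 25.9, 21.0 and 18.8 (-0.13, SE 0.224). All 3 overlapped between groups.

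**Figure D4:**
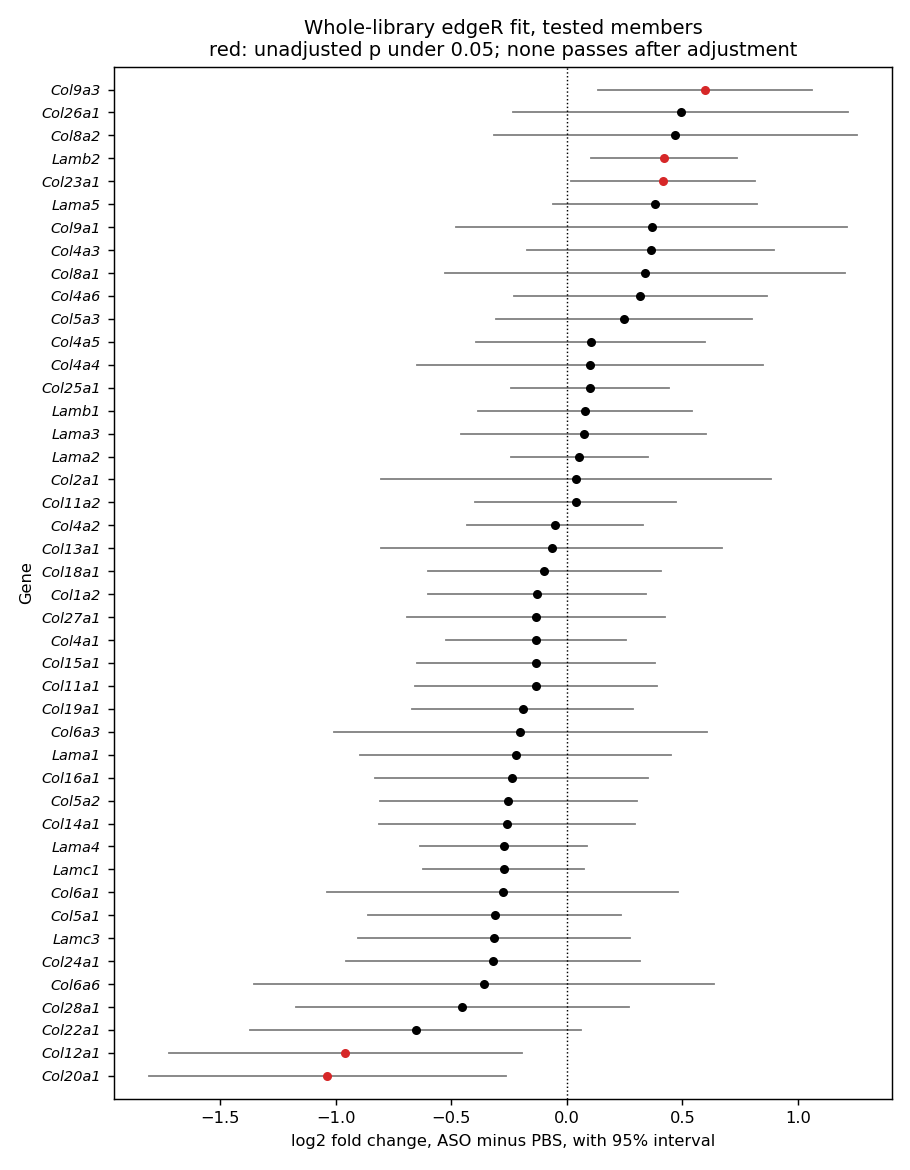
Log2 fold change (horizontal axis, ASO minus PBS, with 95% interval) of 44 of the 45 tested collagen and laminin genes in the whole library, ordered by estimate. Red points have an unadjusted p under 0.05: Lamb2, Col9a3 and Col23a1 to the right, Col20a1 and Col12a1 to the left, and 0 genes pass after adjustment.

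Within classes, 39 tests of these genes could be made in 7 classes, and 0 were past the threshold. Unadjusted, 5 had p under 0.05, and DESeq2 and limma voom called 0, with 0 and 3 at that level. Tested were 9 genes in astrocytes, 9 in endothelial cells, 8 in mural cells, 4 in microglia and macrophages, 4 in oligodendrocyte precursor cells, 3 in oligodendrocytes and 2 in dentate neurons. Over all genes, the share called was 0% in astrocytes, 0% in endothelial cells, 0.257% in mural cells, 0.0365% in microglia and macrophages, 0.0447% in oligodendrocyte precursor cells, 0.238% in oligodendrocytes and 0% in dentate neurons. CA1, Cajal-Retzius and subiculum neurons were also fitted, and 0 of the 55 genes passed the filter there.

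In mural cells the common gamma chain and one vessel wall alpha chain had the lowest p. Lamc1 was at 298, 435 and 506 normalised CPM in PBS and at 244, 272 and 123 in ASO mice (log2 fold change -0.90 with SE 0.364, edgeR adjusted p = 0.443). Lama4 was at 256, 301 and 223 against 167, 105 and 98.2 (-0.96, SE 0.462, edgeR adjusted p = 0.590). For both, every ASO mouse was below every PBS mouse, and 2 of 8 genes were apart where 12.4% of all genes tested in mural cells were. Col4a1 was at 447, 602 and 385 against 475, 272 and 172 (-0.50, SE 0.345), with overlap. Lamb2 and Lama5 had positive estimates in the same cells, 0.30 (SE 0.347) and 0.33 (SE 0.391). Marker sums are given for the same class. Each overlapped between groups, and 0 of the marker genes tested in mural cells were called. The 8 endothelial markers stood at 2751, 4557 and 2958 CPM in mural cells of PBS mice and at 2142, 2966 and 877 CPM in those of ASO mice. The 8 pericyte markers stood at 9340, 10750 and 9455 against 9343, 5972 and 6756 CPM, and the 6 smooth muscle markers at 23699, 20191 and 20086 against 23616, 28419 and 26826 CPM, with none at 0 in these lists. The part of pericyte and smooth muscle RNA in the result was not tested. In mural cells with no endothelial marker UMI, summed over the mice of a group, Lamc1 was at 270 CPM in PBS and 96.3 CPM in ASO mice, and Lama4 at 100.04 and 51.4 CPM. These are plain CPM of all UMIs without a spread, on another scale than the normalised CPM of both genes above. Their UMIs per mouse were 6, 6 and 15 against 7, 6 and 2 for Lamc1, and 3, 3 and 4 against 5, 2 and 1 for Lama4. In mural cells with such a UMI, Lamc1 was at 247 and 199.8 CPM and Lama4 at 217 and 127 CPM.

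Endothelial cells, which held most UMIs of Col4a1, Col4a2, Lama4, Lama5 and Lamb2, had Lama5, Lamb2 and Lamc1 as the genes of lowest p. Lama5 was at 133, 119 and 92.1 normalised CPM in PBS and at 171, 112 and 182 in ASO mice (0.44, SE 0.231), and Lamb2 at 153, 166 and 220 against 227, 235 and 243 (0.38, SE 0.200). Lamb2 was the 1 gene of 9 that was apart between groups, against 9.53% of all genes tested there. Lamc1 was at 105, 90.1 and 88.8 against 74.2, 77.3 and 91.1 (-0.23, SE 0.259). Col4a1 and Col4a2 had log2 fold changes of 0.01 (95% interval -0.40 to 0.42) and 0.02 (-0.40 to 0.43). The adjusted p of Lama5, Lamb2 and Lamc1 was 0.9995 in edgeR.
Whether the mural and endothelial differences differ from each other was tested for 12 of the genes in 1 model with the mouse as a block, and 0 were called, against 0.0731% of all genes. The difference (mural minus endothelial) was -0.83 for Lama4 (SE 0.494, edgeR adjusted p = 0.939), -0.63 for Lamc1 (SE 0.448), -0.52 for Col4a1 (SE 0.360) and 0.00 for Lamb2 (SE 0.369).

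**Figure D5:**
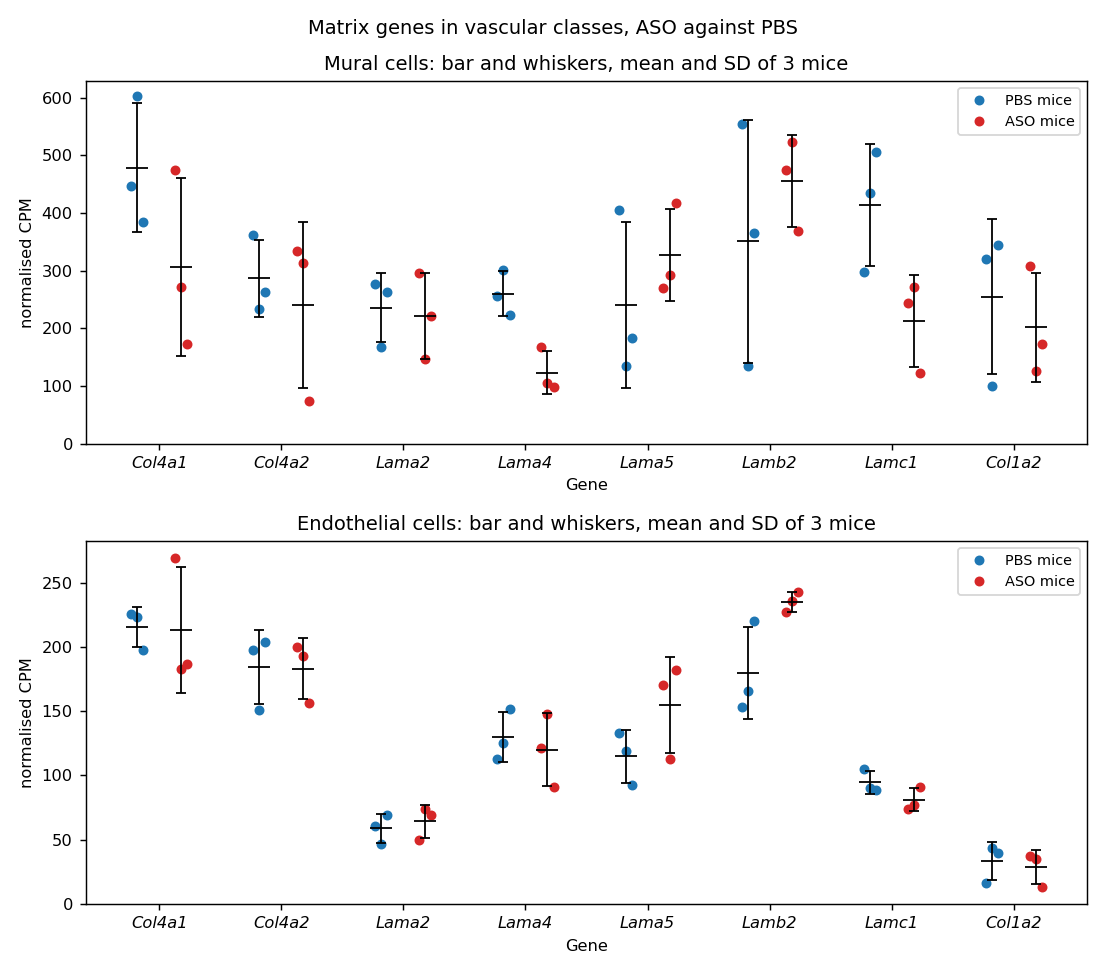
Normalised CPM (vertical axis) of the 8 genes tested in mural cells (top) and of the same genes in endothelial cells (bottom), for each PBS mouse (blue) and ASO mouse (red), with the mean and SD of 3 mice in black. In mural cells Lamc1 and Lama4 are lower in every ASO mouse, and in endothelial cells Lamb2 is higher in every ASO mouse.

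Outside the vessel wall, astrocytes had Lamb2 at 30.7, 22.0 and 53.8 normalised CPM in PBS and at 79.7, 41.2 and 59.7 in ASO mice (0.80, SE 0.364, edgeR adjusted p = 0.999). Col9a3 there (log2 fold change 0.67, SE 0.314) was the 1 gene of 9 that was apart, by a margin between 46.6 and 46.7, against 8.99% of all genes. Col23a1 was at 34.1, 35.7 and 30.3 against 32.4, 57.7 and 53.1 in astrocytes (0.49, SE 0.360). Lama2 in astrocytes was at 283, 280 and 289 against 296, 212 and 226 (-0.21, SE 0.182). In oligodendrocytes Col9a3 was at 24.2, 24.7 and 20.3 against 57.6, 24.2 and 39.7 (0.86, SE 0.359, edgeR adjusted p = 0.587), and the choroid markers stood at 3185, 5270 and 60.6 against 3552, 2055 and 6205 CPM there.
Col25a1 in dentate neurons was at 88.9, 140 and 128 against 154, 166 and 175 (0.44, SE 0.263), 1 of 2 genes apart, against 8.49% of all genes. Col27a1 in microglia and macrophages was at 194, 92.6 and 127 against 132, 64.7 and 196 (-0.01, SE 0.269). No collagen or laminin gene was apart between groups in microglia and macrophages, oligodendrocytes or oligodendrocyte precursor cells, where 11%, 11.5% and 9% of all genes tested were.

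Fibroblast-Like cells, which led for the most genes, had 9, 19 and 11 cells in PBS and 27, 22 and 20 in ASO mice, under the minimum of 20 per mouse. With that minimum lowered to 9 after the data were seen, Col1a2 was the 1 gene tested, at 2786, 4958 and 4740 normalised CPM in PBS and at 3371, 2667 and 1766 in ASO mice (-0.68, SE 0.404, adjusted p = 0.783). The class made up 0.494%, 0.944% and 0.521% of cells in PBS and 0.957%, 1.05% and 1.14% in ASO mice. The exact two-sided permutation p was 0.1, the smallest that 3 against 3 can give. Mural cells made up 3.62%, 2.43% and 3.65% against 4.46%, 3.72% and 3.66% (exact permutation p = 0.1). Of the 17 classes, 5 were at this p, 3 higher in ASO mice (interneurons too) and 2 lower (Cajal-Retzius and dentate neurons), with a Benjamini-Hochberg adjusted p of 0.34.

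Genes that act with collagens and laminins were read from 4 lists in the same whole-library fit, and 0 passed in any. Of other basement membrane and matrix proteins, 11 were higher by estimate and 15 lower among 26 tested of 29. Lum and Ogn, which coat collagen fibrils and are also in the fibroblast marker list, had log2 fold changes of 1.22 (SE 0.411) and 0.54 (SE 0.187), and Frem1 0.85 (SE 0.328). Of 22 tested genes of collagen synthesis and processing, 7 were higher and 15 lower, with Leprel1 at -0.49, Leprel2 at -0.27 and P4hb, a subunit of prolyl hydroxylase, at 0.16. Of 14 receptors, 5 were higher and 9 lower. Itga6, an integrin chain that binds laminin, was at 134, 114 and 113 normalised CPM in PBS and at 101, 62.1 and 98.9 in ASO mice, every ASO mouse lower (-0.46, SE 0.165, edgeR adjusted p = 0.999). Dag1, the dystroglycan that binds Lama2 protein, was at -0.25 and Lair1, a collagen receptor of immune cells, at -0.24. Of 14 proteases and inhibitors, 9 were higher and 5 lower. Adamts1, which cuts proteoglycans, was at 180, 183 and 190 against 263, 200 and 240 normalised CPM, every ASO mouse higher (0.35, SE 0.131). Mmp16 was at -0.29 and Timp2, a protease inhibitor, at 0.25. Itga6 and Adamts1 were apart between groups, as were 9.02% of all genes tested in the whole library.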

How the data were processed

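The authors deposited UMI counts per gene and cell in 1 table, without normalization, and each column name gave the mouse and the class. Tools named per the submitters' processing notes are STAR 2.5.0c and bcl2fastq, and the builds mm10 and GRCm38. How UMIs were counted (program, annotation, strand) is not given in the sources used here. Genes and lists were chosen with earlier results of these data known.

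Doublets were called per mouse with Scrublet in scanpy 1.11.5 (207 of 12823 cells removed, 1.61%). The UMIs of each mouse were added up over its cells, and again within each class with at least 20 cells in every mouse. The treatment groups were tested with the quasi-likelihood F test of edgeR 4.0.16 (R 4.3.3, two-sided, TMM scaling, filterByExpr), with Benjamini-Hochberg adjustment over all genes tested and a threshold of 0.05. Standard errors and 95% intervals come from the fit, and the scripts were tested on simulated data. Shares of cells had an exact permutation test over 20 assignments. Alternatives were DESeq2 1.42.0 and its size factors, limma 3.58.1 voom, no filter on low counts, doublets kept, and each mouse left out in turn. A term for the 3 sets cut by the mt-Rnr2 to mt-Cytb ratio was also used. Mural and endothelial cells were fitted again without cells that held markers of the other vascular class. The lower minimum of 9 cells and the split of mural cells by endothelial marker UMIs were added after seeing the data.

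Named were genes with at least 100 UMIs for the class levels (at least 1 per kind of chain), and, for the comparison, the 3 lowest unadjusted p in the whole library and in each class with at least 5 tested, the 12 genes with most UMIs, and the 3 lowest p per list. Other members were named after their values were seen. The values of 1 tested member are not reported here, though the counts include it.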

Additional observations from a re-analysis of the deposited data

How the results depend on the processing

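No collagen or laminin gene passed under any alternative that was run, in the whole library, within classes or between mural and endothelial cells, and the lowest adjusted p of any of them was 0.226. The test between mural and endothelial cells was repeated only with DESeq2 size factors, no filter, doublets kept and each mouse left out. It was not repeated without cells that held markers of the other vascular class. Of 29 log2 fold changes named, 24 kept their sign in every alternative. In the whole library the sign of 5 changed when a mouse was left out. Col1a2 ranged from -0.31 to 0.11, positive without PBS replicate 2, and Col27a1 from -0.34 to 0.16, positive without PBS replicate 1 (0.05) or ASO replicate 2 (0.16). Col4a1 ranged from -0.43 to 0.00495, positive without ASO replicate 3, and Col4a2 from -0.18 to 0.10, positive without PBS replicate 1 (0.03) or ASO replicate 3 (0.10). Lama2 ranged from -0.0196 (without ASO replicate 1) to 0.17, and was -0.00442 without ASO replicate 3. The cause was not tested. The leading class of 35 genes was the same for 5 by UMIs held, 27 in PBS mice only, 35 with doublets kept and 29 to 34 with a mouse left out. Lamc1 and Lama4 had too few counts for a fit in mural cells without an endothelial marker UMI. The labels give the mice no replicate numbers to pair them by. A term for the 3 sets cut by the mt-Rnr2 to mt-Cytb ratio, each of 1 PBS and 1 ASO mouse, was also fitted. With it, 0 collagen or laminin genes were called in the whole library or within classes, as without it. Over all genes, calls rose from 1 to 2 in the whole library, 4 to 5 in mural cells, 17 to 31 in oligodendrocytes, 2 to 5 in oligodendrocyte precursor cells, 2 to 4 in microglia and macrophages, 2 to 6 in subiculum neurons and 0 to 4 in dentate neurons. The depth, at most 1999 UMIs per cell, limits the genes tested, and a miss of the threshold does not show that levels were alike.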
